A study of Homo sapiens with 27 samples.

Results

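Inflammatory genes of endothelial cells, 10 in number, were followed across 6 groups of CRISPR-treated cells: the chemokine and cytokine genes CXCL8, CXCL1, CCL2 and IL6, the adhesion molecule genes ICAM1, VCAM1 and SELE, and NFKBIA, TNFAIP3 and RELB of the NF-kB system. They were chosen by name, as genes driven by NF-kB in endothelium, and found by their Ensembl identifiers. Of the 10 genes named, 8 had rows among the 14008 genes of the count table and all 8 passed the filter on low counts, while VCAM1 and SELE were not analysed here. In edgeR's quasi-likelihood test no member passed an adjusted p of 0.05 in any of 10 comparisons. The widest differences were lower CXCL8 and IL6 after deletion of an LDAH enhancer. Between libraries of the same group, with all 27 included, CXCL8 and ICAM1 varied more than most genes of like level.

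NF-kB is a family of dimeric transcription factors that IkB proteins hold in the cytoplasm. Signals such as TNF, interleukin-1 or bacterial lipopolysaccharide activate the IkB kinase, IkB is degraded, and the freed dimers switch on chemokines, adhesion molecules and their own inhibitors. In the vessel wall these genes recruit leukocytes: chemokines attract neutrophils and monocytes, E-selectin slows them, and VCAM-1 and ICAM-1 hold them on the endothelium.

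The cells were teloHAEC, a telomerase-immortalised endothelial line of the human aorta. Each replicate of 150000 cells was electroporated with Cas9 ribonucleoprotein and collected 2 days later for QuantSeq 3′ RNA sequencing, which counts 1 fragment near the 3′ end of a transcript. Set A held 4 libraries in which guides flanked an enhancer of SMAD3, a transcription factor gene of TGF-beta signalling, 4 libraries with the kit's HPRT guide as positive control, and 4 with its non-targeting guide as negative control. Set B held 4 libraries in which guides flanked an enhancer of LDAH (C2orf43), the gene of a lipid droplet hydrolase, 4 with the HPRT guide and 7 with the non-targeting guide. All groups, controls included, received Cas9 and the electric pulse, and the labels name neither an inflammatory stimulus nor any selection of edited cells. The libraries are therefore of bulk, mixed cells, in which fewer cells of a type and less RNA per cell cannot be told apart. Nothing in the labels tells whether replicates were grown separately before their electroporations, so the p-values reflect the spread among these samples, part of which may be technical.

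The promoters of 4 members are shown for their matches to the kappaB site, the DNA element that NF-kB dimers bind. Such a match was present in every promoter found for these otherwise unlike genes. RefSeq promoters (GRCh38.p14) were found for 8 of the 10 genes, all except CCL2 and RELB. Each line gives the 250 bases before the RefSeq start, and capitals mark matches to GGNNNTTCC or to the REL kappaB consensus on either strand, joined where they overlap. In GENCODE 29 the spans of CXCL8 and ICAM1 begin 5′ of the RefSeq start used here.
CXCL8 chr4:73740319-73740568 (+ strand): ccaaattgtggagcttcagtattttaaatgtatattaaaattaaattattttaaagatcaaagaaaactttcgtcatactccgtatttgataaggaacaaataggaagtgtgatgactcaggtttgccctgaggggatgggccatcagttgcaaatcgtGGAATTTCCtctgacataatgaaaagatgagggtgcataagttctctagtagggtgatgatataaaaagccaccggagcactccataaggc
CXCL1 chr4:73869143-73869392 (+ strand): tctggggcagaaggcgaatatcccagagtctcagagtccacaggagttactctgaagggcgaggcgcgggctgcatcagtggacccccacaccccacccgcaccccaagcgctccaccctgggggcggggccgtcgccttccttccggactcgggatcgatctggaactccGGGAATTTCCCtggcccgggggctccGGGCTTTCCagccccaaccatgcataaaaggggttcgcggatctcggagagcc
ICAM1 chr19:10270870-10271119 (+ strand): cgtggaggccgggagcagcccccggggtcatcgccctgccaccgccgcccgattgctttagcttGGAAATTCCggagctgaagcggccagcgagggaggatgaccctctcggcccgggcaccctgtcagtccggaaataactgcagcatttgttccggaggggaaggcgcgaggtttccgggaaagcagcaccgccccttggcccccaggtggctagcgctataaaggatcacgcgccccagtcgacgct
NFKBIA chr14:35404750-35404999 (- strand): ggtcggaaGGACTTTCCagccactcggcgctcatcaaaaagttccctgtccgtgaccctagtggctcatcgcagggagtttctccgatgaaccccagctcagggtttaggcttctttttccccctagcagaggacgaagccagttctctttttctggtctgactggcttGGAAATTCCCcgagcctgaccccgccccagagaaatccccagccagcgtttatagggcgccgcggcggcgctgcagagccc

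In the full window of 250 bases before and 50 after the start, 8 of 8 promoters held GGNNNTTCC on at least 1 strand, against 20.1% of 35116 RefSeq promoters. The REL consensus, which overlaps it, was in 6 of 8, against 5.91% of promoters. TATAAA was in 5 of 8, against 11.5%, and the AP-1 motif TGANTCA was in CXCL8 alone, against 7.71%. In CXCL8 the match GGAATTTCC began 91 bases before the start and the AP-1 match 137 bases before it. CXCL1 held the same 9 letters 78 bases before its start and a second match, GGGCTTTCC, at 53 bases. ICAM1 had GGAAATTCC at 186 bases, and NFKBIA had the same letters at 81 bases and GGACTTTCC at 242 bases. These are matches of letters and do not show binding in these cells. The members were chosen as genes driven by NF-kB, so an excess of kappaB matches is no test of that choice. The 8 promoters include those of VCAM1 and SELE, which were not analysed here.

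Libraries held 4761002 to 7752413 counts (set A) or 3430481 to 6414050 (set B). Levels are counts scaled to the library's effective total (CPM), and a count of 0 allows up to 0.387 to 0.875 CPM, taking 3 counts of a library's total, which covers counting error only. Of the 27 libraries, 7 stood apart from their set across all genes: SMAD3 deletion replicate 4, HPRT-targeted replicate 3 of set A, LDAH deletion replicate 4, HPRT-targeted replicates 2 and 4 of set B, and negative control replicates 6 and 7 of set B. Their share of ribosomal protein counts was 15.3% to 16.4%, against 11.7% to 14.5% in the other libraries of set A. In set B it was 14.9% to 17.3%, against 9.35% to 11.3%. The 12 endothelial markers, such as PECAM1 and CDH5, summed to 1091 to 1487 CPM in these 7 libraries and to 1757 to 2209 CPM in the other 20. They were uneven: over all libraries PECAM1 averaged 354 CPM and CDH5 210 CPM, but EMCN 5.83 CPM and VWF 2.81 CPM, with VWF at 0 in 3 libraries. Of 10 leukocyte markers, 3 had rows and summed to 2.05 to 17.7 CPM over all libraries, and PTPRC (CD45) had none used here. Among 8 smooth muscle and fibroblast markers only ACTA2 had a row, at 14.0 to 51.3 CPM, and none of 5 epithelial or 3 erythroid markers did. The targets themselves had negative log2 fold changes, none with an adjusted p under 0.05. SMAD3 was at -0.44 ± 0.14 (SE) in its deletion and LDAH at -0.76 ± 0.40. HPRT1 was at -0.33 ± 0.21 (set A) and at -0.23 ± 0.33 (set B), the latter within 1 SE of 0. Adjusted p-values in edgeR's quasi-likelihood test (Benjamini-Hochberg) were 0.702 to 1.00. The CPM of LDAH, and of HPRT1 in each set, overlapped the negative control. Those of SMAD3 did not, as in 5.43% of genes.

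CXCL8 (ENSG00000169429, chr4:73740506-73743716, GRCh38, as for all positions of genes) encodes the neutrophil chemokine interleukin-8. It had 3.29, 11.2, 11.6 and 7.41 CPM in LDAH deletion libraries, against 13.3, 53.7, 32.4 and 58.02 CPM in HPRT-targeted and 11.5, 19.4, 18.96, 39.1, 24.1, 61.2 and 17.6 CPM in negative control libraries of set B. Of the 4 deletion libraries 3 lay below every control library, and the highest was level with the lowest negative control. In set A the SMAD3 deletion libraries had 9.25, 14.0, 22.3 and 16.0 CPM, the HPRT-targeted libraries 2.73, 12.6, 29.9 and 19.8 CPM, and the negative control 9.01, 12.96, 18.2 and 19.7 CPM. These 3 groups overlapped throughout. By mean the order was LDAH deletion (8.37 ± 3.87 CPM, SD, n = 4), negative control A (14.97 ± 4.92), SMAD3 deletion (15.4 ± 5.40), HPRT-targeted A (16.3 ± 11.5), negative control B (27.4 ± 17.2, n = 7) and HPRT-targeted B (39.3 ± 20.7). The ranges of neighbours in that order overlapped throughout, and the order mixes groups of both sets.

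CXCL1 (ENSG00000163739, chr4:73869393-73871242), another neutrophil chemokine gene, ranged over 7.27 to 29.2 CPM in SMAD3 deletion libraries, against 13.4 to 22.9 CPM in HPRT-targeted and 16.8 to 27.3 CPM in negative control libraries of set A. In set B it ranged over 3.85 to 20.5 CPM in LDAH deletion libraries, against 10.9 to 27.3 CPM in HPRT-targeted and 6.996 to 29.9 CPM in negative control libraries. The groups overlapped in both sets, and the counts of CXCL1 are uncertain in that its near-identical neighbours CXCL2 and CXCL3 can share its reads. CCL2 (ENSG00000108691, chr17:34255218-34257203) encodes the monocyte chemokine MCP-1. It had 23.2, 8.64, 7.44 and 55.7 CPM in LDAH deletion libraries, against 41.3, 24.98, 21.9 and 54.1 CPM in HPRT-targeted and 43.8, 19.7, 19.7, 21.7, 30.9, 54.4 and 47.9 CPM in negative control libraries. The lowest 2 of all 27 libraries and the highest 1 were thus LDAH deletions, and the highest was a library that stands apart. In set A, CCL2 had 21.3 to 51.7 CPM in SMAD3 deletion, 22.2 to 44.1 CPM in HPRT-targeted and 19.6 to 38.5 CPM in negative control libraries, which overlapped.

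IL6 (ENSG00000136244, chr7:22725884-22732002), the gene of the cytokine interleukin-6, was low, with 4 to 52 counts per library. It had 2.60, 2.08, 0.826 and 1.18 CPM in LDAH deletion libraries, against 4.26, 1.30, 6.87 and 1.23 CPM in HPRT-targeted and 3.37, 1.52, 3.26, 7.38, 6.06, 9.92 and 6.78 CPM in negative control libraries. Only the lowest of the 7 negative control libraries was within the range of the deletion, while 2 of the 4 HPRT-targeted libraries were within it and 2 above. Set A held 2.35, 2.54, 6.48 and 1.86 CPM in SMAD3 deletion libraries, 2.01, 4.44, 1.16 and 1.10 CPM in HPRT-targeted libraries and 3.51, 1.62, 2.71 and 4.60 CPM in the negative control. The annotation places STEAP1B and IL6-AS1 on the opposite strand across the 5′ part of IL6, up to position 22727620, away from its 3′ end. The use of strand in counting is not given in the sources used here, so any counts from that part are uncertain.

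ICAM1 (ENSG00000090339, chr19:10270835-10286615) encodes the adhesion molecule that binds leukocyte integrins. It had 25.8, 12.96, 10.1 and 10.4 CPM in LDAH deletion libraries, against 26.8, 4.07, 11.7 and 0 CPM in HPRT-targeted and 29.8, 10.6, 12.7, 2.83, 10.5, 5.91 and 4.24 CPM in negative control libraries. In set A it had 14.6, 10.4, 4.86 and 6.53 CPM in SMAD3 deletion, 17.2, 14.0, 4.65 and 9.47 CPM in HPRT-targeted and 15.3, 11.1, 5.74 and 8.05 CPM in negative control libraries. The groups overlapped in both sets, and each group held high and low libraries. The 0 belongs to HPRT-targeted replicate 4 of set B, which stands apart, and allows up to 0.607 CPM in that library. Antisense transcripts LIMASI and ICAM4-AS1 overlap ICAM1 in the annotation.

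NFKBIA (ENSG00000100906, chr14:35401511-35404749), which encodes the inhibitor IkB-alpha, was the steadiest member. It had 67.5, 79.6, 94.4 and 119 CPM in SMAD3 deletion libraries, against 81.5, 88.0, 89.0 and 79.9 CPM in HPRT-targeted and 77.8, 67.04, 74.7 and 70.2 CPM in negative control libraries of set A. All 4 HPRT-targeted libraries, and 3 of 4 SMAD3 deletion libraries, exceeded every negative control of that set. In set B it had 68.6 to 103 CPM in LDAH deletion libraries, against 70.3 to 117 CPM in HPRT-targeted and 72.4 to 131 CPM in negative control libraries, which overlapped.

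TNFAIP3 (ENSG00000118503, chr6:137867188-137883312), which encodes the ubiquitin-editing inhibitor A20, was the weakest member, with 0 to 29 counts and 0 to 5.95 CPM. It was at 0 in LDAH deletion replicate 2 and in negative control replicate 7 of set B, which allow up to 0.505 and 0.655 CPM. By group it had 1.24, 0.936, 2.30 and 1.49 CPM in SMAD3 deletion, 1.29, 1.2, 0.332 and 0.440 CPM in HPRT-targeted and 0.611, 2.43, 1.75 and 2.30 CPM in negative control libraries of set A. In set B the ranges were 0 to 2.31 CPM in LDAH deletion, 1.00 to 5.95 CPM in HPRT-targeted and 0 to 3.85 CPM in negative control libraries. The antisense gene WAKMAR2 overlaps TNFAIP3 in the annotation. RELB (ENSG00000104856, chr19:45001430-45038198), which encodes a subunit of the alternative NF-kB pathway, averaged 7.22 ± 1.46 CPM in SMAD3 deletion, 7.11 ± 2.11 CPM in HPRT-targeted and 7.23 ± 1.195 CPM in negative control libraries of set A (SD, n = 4 each). In set B it averaged 8.43 ± 1.68 CPM in LDAH deletion and 5.13 ± 2.50 CPM in HPRT-targeted libraries (n = 4 each), against 6.76 ± 2.47 CPM in the negative control (n = 7). Its groups overlapped in each set.

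**Figure D1:**
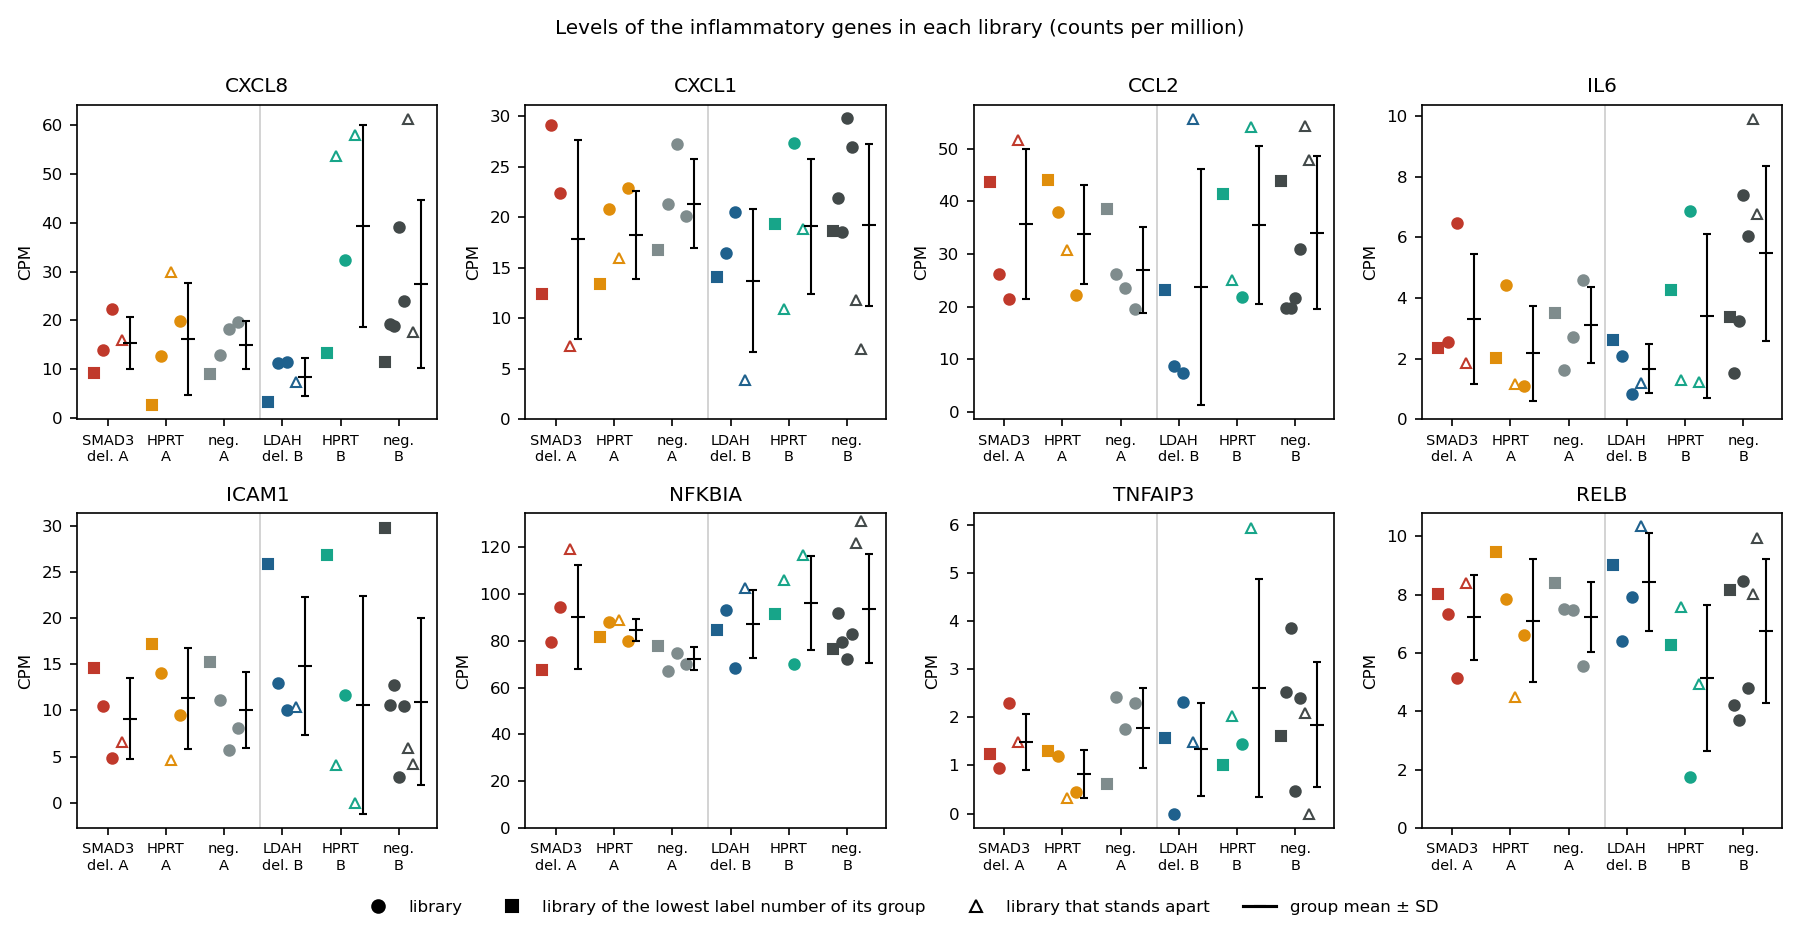
CPM of 8 genes in 27 libraries, in 6 groups (del., enhancer deletion; HPRT, HPRT-targeted; neg., negative control; A and B, experiment sets). Squares mark the library of the lowest label number of each group, open triangles the 7 libraries that stand apart, and bars the group mean ± SD; the mean of CXCL8 is lowest in the LDAH deletion, at 8.37 CPM.

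Whether deletion of the LDAH enhancer changed these genes was tested against the negative control of set B. Of the 8 members, 6 were lower and 2 higher, with a median log2 fold change of -0.48, against 0.01 over all 11769 genes. CXCL8 had a log2 fold change of -1.71 ± 0.51 (SE; 95% interval -2.78 to -0.64), with 4 of 4 deletion libraries below the control mean, and IL6 had -1.69 ± 0.65 (-3.07 to -0.32), also with 4 of 4. In edgeR's quasi-likelihood test the unadjusted p was 0.00366 for CXCL8 and 0.0188 for IL6, and with Benjamini-Hochberg adjustment over all genes 0.757 and 0.971. Thus 0 of 8 members passed, as did 0% of all genes. At an unadjusted p under 0.05 the count was 2 of 8, against 4.61% of genes, and no member had groups free of overlap, against 1.08%. DESeq2 and limma voom also called 0 members, here and in each comparison below.

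The other members of the LDAH comparison had smaller or less certain values. CCL2 had a log2 fold change of -0.54 ± 0.49 and CXCL1 -0.48 ± 0.41. TNFAIP3 had -0.48 ± 0.96, ICAM1 0.43 ± 0.76, RELB 0.31 ± 0.40 and NFKBIA -0.11 ± 0.21. The interval of NFKBIA, -0.55 to 0.33, was the narrowest of the 8, while that of TNFAIP3 ran from -2.51 to 1.55.

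Without the 7 libraries that stand apart, CXCL8 was at 3.29 to 11.6 CPM in 3 LDAH deletion libraries, against 11.5 to 39.1 CPM in 5 negative control libraries. Its log2 fold change was then -1.39 ± 0.39, with an adjusted p of 0.0708 in edgeR's quasi-likelihood test, the smallest of any member under any alternative. CCL2 moved to -1.07 ± 0.34 (adjusted p = 0.130), at 13.1 ± 8.79 CPM in the deletion and 27.2 ± 10.4 CPM in the control. IL6 was at -1.24 ± 0.64 and CXCL1 at -0.46 ± 0.24. The value of CCL2 rests on single libraries: it was -1.39 without LDAH deletion replicate 4, -0.26 without replicate 2 and -0.23 without replicate 3. Over all 24 alternatives CXCL8 stayed between -1.90 and -1.37 with an unadjusted p under 0.05 in 24, and adjusted p of 0.0708 to 1.00. These are refits of the same libraries. Of all genes, 5.37% had an unadjusted p under 0.05 with DESeq2, 10.9% with limma voom and 3.46% without the lowest label number of each group. Without the 7 libraries it was 12.8%, and 1.74% of genes passed the adjusted threshold, 191 lower and 21 higher. The adjusted p of CCL2 ran from 0.130 to 1.00. IL6 lay between -2.07 and -0.99, with an unadjusted p under 0.05 in 20 of 23.

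**Figure D2:**
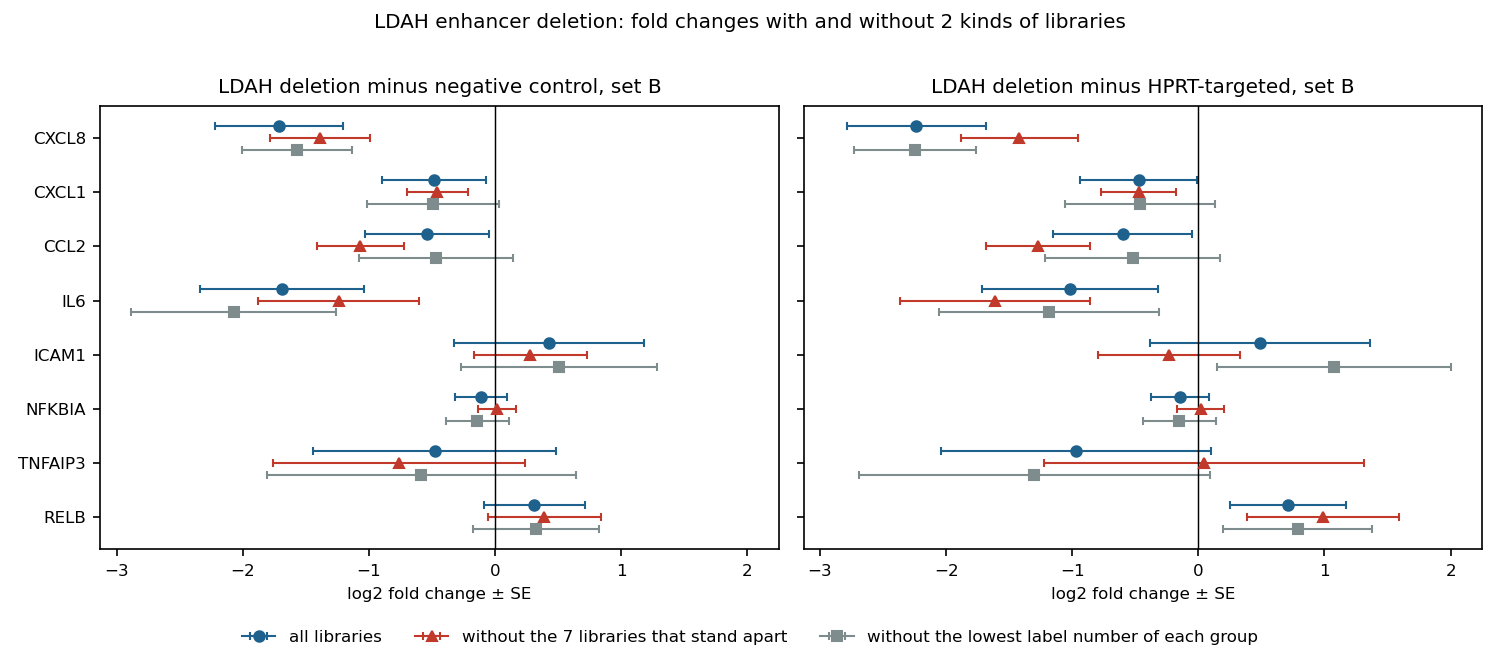
log2 fold changes (± SE) of the 8 genes in the LDAH deletion against the negative control and against the HPRT-targeted libraries of set B, with all libraries, without the 7 that stand apart and without the library of the lowest label number of each group. CXCL8 lies below 0 in all 6 fits, between -2.24 and -1.39. Without the 7 there were 3 deletion, 2 HPRT-targeted and 5 negative control libraries.

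Against the HPRT-targeted libraries, which also received a cutting guide, the LDAH deletion had lower CXCL8 in every library: 3.29 to 11.6 CPM, against 13.3 to 58.02 CPM. The log2 fold change was -2.24 ± 0.55 (95% interval -3.40 to -1.07; unadjusted p = 0.000865, adjusted p = 0.948 in edgeR's quasi-likelihood test), and it was -1.42 ± 0.46 without the 7 libraries. Leaving those out kept 3 deletion and only 2 HPRT-targeted libraries. Over its 24 alternatives the adjusted p ran from 0.114 with DESeq2 to 1.00. CXCL8 was the 1 of 8 members whose groups did not overlap, against 2.28% of genes. It was also the 1 with an unadjusted p under 0.05, against 4.22% of genes, of which 338 were lower and 159 higher. Adjusted, 0 of 8 members and 0% of genes passed. RELB had 0.71 ± 0.46, TNFAIP3 -0.97 ± 1.07, IL6 -1.02 ± 0.70 and CCL2 -0.60 ± 0.55. Their intervals all held 0. Single libraries moved several of them: IL6 was at -0.41 without HPRT-targeted replicate 3, and CCL2 at -1.45 and -0.30 without LDAH deletion replicates 4 and 3. Without the 7 libraries IL6 was at -1.61, CCL2 at -1.27 and TNFAIP3 at 0.05, while ICAM1 was at -0.23, against 0.49 with them. The median of the members was -0.54, against 0.02 over all genes.

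Deletion of the SMAD3 enhancer was compared with the negative control of set A. Members were split evenly, 4 higher and 4 lower, with a median log2 fold change of 0.03, against 0.00 over all 11467 genes. NFKBIA had 90.2 ± 22.3 CPM (SD, n = 4), against 72.4 ± 4.79 CPM (n = 4) in the control. The log2 fold change was 0.33 ± 0.15 (SE; 95% interval 0.00 to 0.65) with an unadjusted p of 0.0483 and an adjusted p of 0.730 in edgeR's quasi-likelihood test. It was 0.16 ± 0.11 without the 7 libraries that stand apart, 1 of which is the highest SMAD3 deletion library. Past the adjusted threshold were 0 of 8 members and 0% of genes, by edgeR. At an unadjusted p under 0.05 it was 1 of 8, against 6.78% of genes, and 0 members had groups free of overlap, against 5.43%. Over 21 alternatives the value of NFKBIA lay between 0.16 and 0.48, with an unadjusted p under 0.05 in 4. Among the cytokine genes CCL2 had 0.41 ± 0.29, IL6 0.11 ± 0.49, CXCL8 0.05 ± 0.49 and CXCL1 -0.24 ± 0.33. ICAM1 had -0.12 ± 0.42, TNFAIP3 -0.21 ± 0.49 and RELB -0.00 ± 0.23. The interval of CXCL8, -0.99 to 1.10, holds changes of up to about the size of a doubling in either direction. Against HPRT-targeted libraries the SMAD3 deletion had 0 of 8 members past the adjusted threshold (0% of genes), 0 at an unadjusted p under 0.05 (5.83%) and 0 free of overlap (3.42%), with values from -0.30 ± 0.41 for ICAM1 to 0.83 ± 0.53 for TNFAIP3.

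HPRT targeting, which cuts the genome at another site, was compared with the negative control in each set. In set A, 0 of 8 members passed the adjusted threshold in edgeR's quasi-likelihood test (0% of genes) and 0 had an unadjusted p under 0.05 (2.24%). NFKBIA was the 1 member whose groups did not overlap, against 4.34% of genes, at 84.6 ± 4.57 CPM in HPRT-targeted and 72.4 ± 4.79 CPM in negative control libraries (SD, n = 4 each; log2 fold change 0.22 ± 0.15). TNFAIP3 had -1.03 ± 0.54 at 2 to 9 counts per HPRT-targeted library and 4 to 12 per control library, with 4 of 4 HPRT-targeted libraries below the control mean. Its unadjusted p in edgeR's quasi-likelihood test was 0.0739. Over 19 alternatives its value lay between -1.66 and -0.76, with an unadjusted p under 0.05 in 3 and an adjusted p of at least 0.769. The lowest value, -1.66 ± 0.57 (unadjusted p = 0.0156), came without the library of the lowest title number in each group. That alternative was added after seeing the data. The cytokine and adhesion genes of set A lay between -0.50 ± 0.52 for IL6 and 0.32 ± 0.29 for CCL2. In set B, 0 of 8 passed (0%), 0 had an unadjusted p under 0.05 (1.75%) and 0 were free of overlap (0.28%). There CXCL8 had 0.53 ± 0.45, against 0.03 ± 0.42 without the 7 libraries, which left 2 HPRT-targeted and 5 negative control libraries. With both sets in 1 fit, 0 of 8 passed (0%) and 0 had an unadjusted p under 0.05 (3.19%). NFKBIA had 0.11 ± 0.13 there, with an interval from -0.15 to 0.38, and CXCL8 0.35 ± 0.36. For the difference of the HPRT effect between sets the counts were 0 of 8 (0%) and, unadjusted, 0 of 8 (1.32%).

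**Figure D3:**
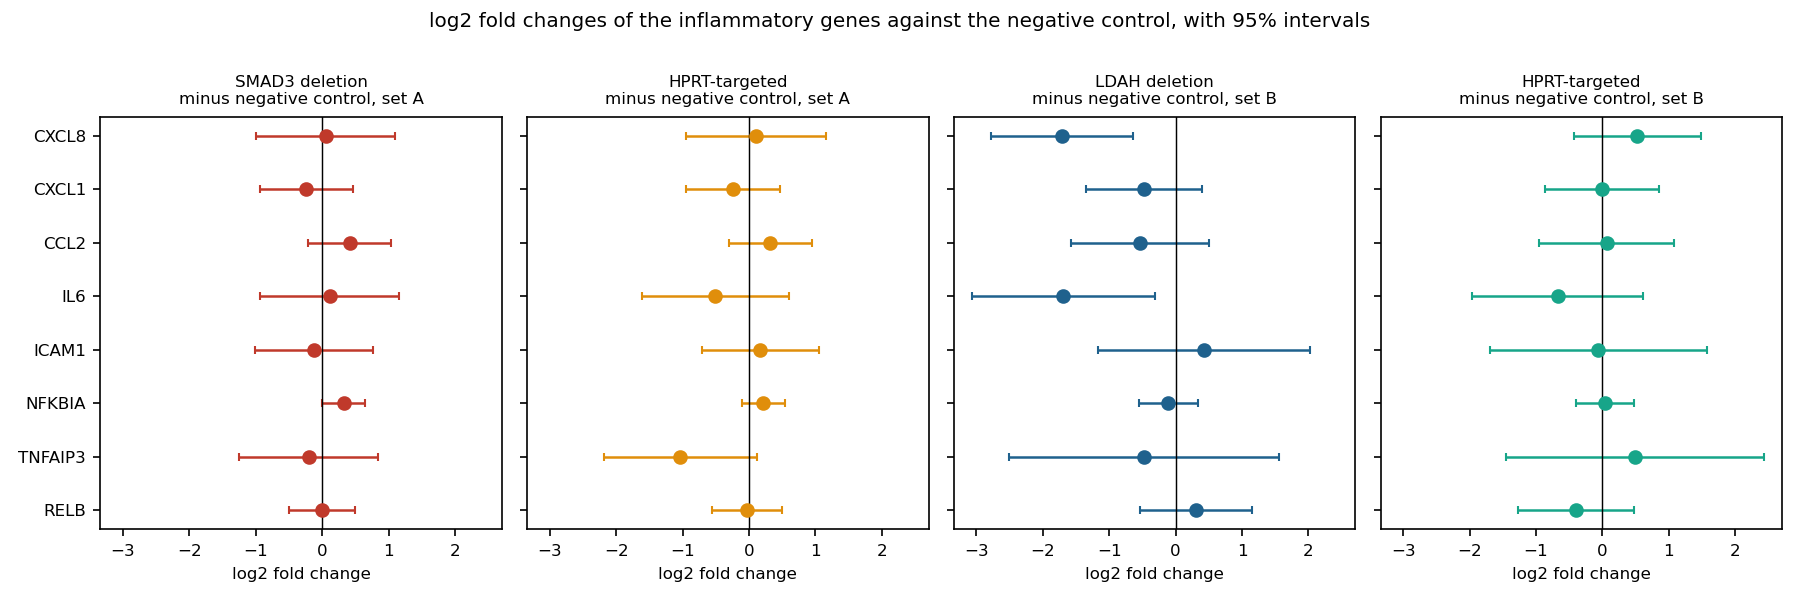
log2 fold changes of the 8 genes with 95% intervals, in 4 panels: SMAD3 deletion, HPRT-targeted A, LDAH deletion and HPRT-targeted B, each minus the negative control that went with it. Of the 32 intervals, 3 exclude 0: CXCL8 and IL6 in the LDAH deletion and NFKBIA in the SMAD3 deletion.

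The effects of both deletions, each against its own control, were set against each other in 1 fit. The SMAD3 effect minus the LDAH effect was 1.74 ± 0.75 for CXCL8 (95% interval 0.20 to 3.29; unadjusted p = 0.0284) and 1.77 ± 0.84 for IL6 (unadjusted p = 0.0455), with adjusted p-values of 1.00 in edgeR's quasi-likelihood test. Adjusted, 0 of 8 members and 0% of genes passed, and unadjusted 2 of 8, against 3.64% of genes, of which 325 were higher and 114 lower. Without the 7 libraries the difference was 1.43 ± 0.63 for CXCL8 and 1.55 ± 0.79 for IL6, and that of CCL2 was 1.26 ± 0.48, against 0.95 ± 0.64 with them. The deletions were made in separate sets. Between the sets, negative control libraries of set B and of set A differed in 9.6% of all genes, a difference in which set, handling and sequencing cannot be told apart. None of the 8 members was among them (0 of 8), and 1 of 8 had an unadjusted p under 0.05, against 21.9% of genes. That was NFKBIA, with 93.8 ± 23.4 CPM in set B (SD, n = 7), 72.4 ± 4.79 CPM in set A (SD, n = 4) and a log2 difference of 0.37 ± 0.18. Without the 7 libraries it was 0.16 ± 0.12. CXCL8 had 0.87 ± 0.50 and IL6 0.80 ± 0.55 in the same direction.

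Within groups the members differed in how far their libraries spread. The SD of log2 CPM around group means, over 21 residual degrees of freedom, was 1.29 for ICAM1, 0.88 for CXCL8, 0.72 for CCL2 and 0.69 for CXCL1. Among genes whose mean level was within a factor of 2 of each, 96.6%, 93.1%, 90.6% and 86.8% had a smaller SD. All 27 libraries entered these SDs, for members and other genes alike. They thus include the 7 that stand apart and, for ICAM1, the count of 0 in HPRT-targeted replicate 4 of set B. The SDs were not computed without those libraries. The 4 other members were ordinary for their level: 0.27 for NFKBIA, 0.50 for RELB, 0.80 for IL6 and 1.00 for TNFAIP3, with 42.0%, 27.8%, 37.7% and 45.2% of such genes below them.

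**Figure D4:**
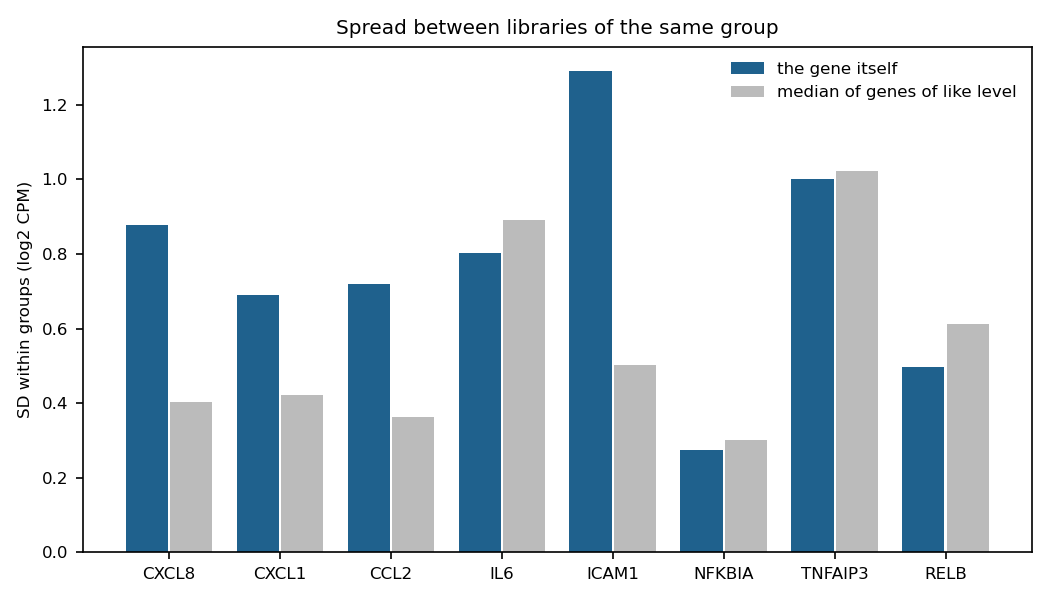
SD of log2 CPM between libraries of the same group for each gene (blue) beside the median SD of genes within a factor of 2 of its mean level (grey). All 27 libraries are included. ICAM1, at 1.29, CXCL8, CCL2 and CXCL1 stand above their grey bars.

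The lowest CXCL8 and the highest ICAM1 of each group went with the number in the library titles, whose meaning the labels do not give. In 6 of 6 groups the library of the lowest number, 10, 26, 27, 50, 55 and 56, had the least CXCL8 of its group, and in 6 of 6 it had the most ICAM1. Of 8465 genes with a mean of at least 10 CPM, 16 (0.189%) were lowest in that library in all 6 groups and 28 (0.331%) were highest. CCL2 was highest there in 2 of 6 groups, and in 6 of 6 among the 20 libraries that do not stand apart, where 1.36% of genes were. Among those 20, CXCL1 was lowest there in 5 of 6 groups and RELB highest in 5 of 6, where 5.03% of genes were lowest and 6.21% highest in 5 or more. In set A the agreement went further, since the 4 libraries ranked by number had the same order of ICAM1 in all 3 groups, where 22 of the 8465 genes (0.26%) kept 1 order. Rank by number held 96.6% of the variation of ICAM1 within the groups of set A and 75.3% of that of CXCL8, against a median of 34.4% over genes. The shares were 56.2% for RELB, 43.9% for CCL2, 40.1% for CXCL1, 23.6% for NFKBIA, 6.42% for TNFAIP3 and 4.10% for IL6. Of the 8465 genes, 99.98% had a smaller share than ICAM1, 96.4% than CXCL8, 83.1% than RELB, 67.3% than CCL2 and 60.9% than CXCL1. For NFKBIA, TNFAIP3 and IL6 it was 26.5%, 3.13% and 1.49%. This pattern was noticed after the values were seen and was given no test. Without the library of the lowest number in each group, CXCL8 was at -1.57 ± 0.43 in the LDAH deletion against the negative control and at 0.05 ± 0.32 in the SMAD3 deletion.

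**Figure D5:**
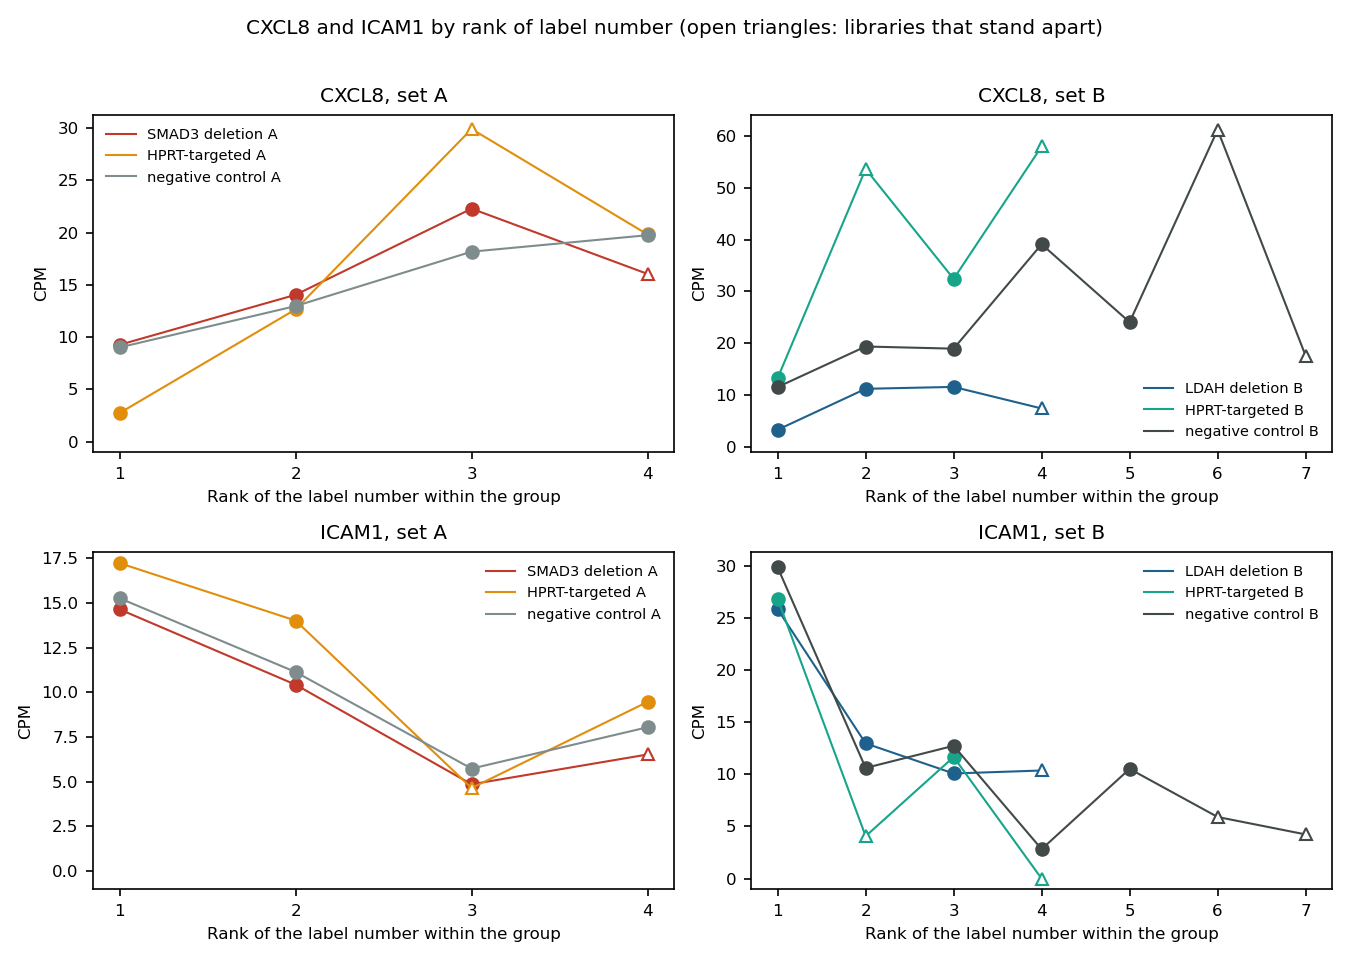
CPM of CXCL8 (top) and ICAM1 (bottom) against the rank of the title number within the group, in set A (left) and set B (right), with 1 line per group and open triangles for libraries that stand apart. CXCL8 is lowest and ICAM1 highest at rank 1 in all 6 groups, and in set A the 3 lines of ICAM1 run in the same order.

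Several members were extreme in the 7 libraries that stand apart. Levels there were set against the remaining libraries of the group, without any other that stands apart, which left 2 libraries in HPRT-targeted B. NFKBIA was above all the remaining libraries of its group in 7 of 7, at 89.0 to 131 CPM. CXCL1 was below all of them in 6 of 7 and CCL2 above in 5, while CXCL8 was above in 4, RELB above in 4 and ICAM1 below in 3. The 7 libraries were picked because they depart across all genes. The share of all genes that are as extreme in them was not computed, so these counts cannot be read as particular to the members. Endothelial markers were lower and ribosomal protein genes higher in the same libraries, as given above, and the part of either in these levels was not tested.

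Other genes of the NF-kB system were read from 6 lists of 108 genes, of which 90 had rows and 75 to 78 were tested. Against the negative control, 0 list members passed the adjusted threshold in either deletion or under HPRT targeting, by edgeR's quasi-likelihood test. At an unadjusted p under 0.05 were 3 of 76 in the SMAD3 deletion (3.95%, against 6.78% of all genes) and 4 of 75 in the LDAH deletion (5.33%, against 4.61%). Under HPRT targeting there were 2 of 76 in set A (2.63%, against 2.24%) and 2 of 75 in set B (2.67%, against 1.75%), so these shares were near or below those of all genes. The NF-kB subunits and kinases had 1 higher and 8 lower of 9 in the SMAD3 deletion (median log2 fold change -0.26) and 7 higher and 2 lower in the LDAH deletion (0.21). Under HPRT targeting they had 1 higher and 8 lower in set A (-0.09) and 0 higher and 9 lower in set B (-0.14). The SMAD3 and HPRT values of set A share their control libraries. Among inhibitors and feedback genes 6 of 13 were higher in the SMAD3 deletion and 8 of 13 in the LDAH deletion. Of receptors and adaptors of TNF, interleukin-1, toll-like receptors and interleukin-6, 10 of 23 and 15 of 23 were higher. Other cytokines and chemokines had 3 of 6 and 3 of 5 higher, other adhesion molecules 5 of 11 and 7 of 11, and other NF-kB targets 6 of 14 and 7 of 14. Medians over all genes were 0.00 and 0.01.

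The list genes with an unadjusted p under 0.05 and a mean of at least 10 CPM are given by value only. In the SMAD3 deletion IKBKG, the regulatory subunit of the IkB kinase, was at 88.5 ± 11.3 CPM in deletion and 119 ± 8.37 CPM in negative control libraries (SD, n = 4 each), a log2 fold change of -0.41 ± 0.11 with an unadjusted p of 0.00251 and an adjusted p of 0.702 in edgeR's quasi-likelihood test. A near-identical pseudogene copy can share reads of IKBKG, so its counts are uncertain. IL6ST, the signalling receptor gp130 of interleukin-6, had 0.26 ± 0.09, and JAM3, a junctional adhesion molecule, had -0.23 ± 0.11. In the LDAH deletion TNFAIP8, which is induced by TNF, had 18.4 ± 7.54 CPM, against 9.82 ± 2.63 CPM in the negative control, a value of 0.90 ± 0.30. The cytokine gene IL32 had 0.59 ± 0.23. TRAF6, an adaptor ubiquitin ligase of interleukin-1 and toll-like receptors, had -0.80 ± 0.31 in the LDAH deletion, and under HPRT targeting it had -0.65 ± 0.30 in the same set and -0.45 ± 0.18 in the other. The LDAH and HPRT values of set B share their control libraries. PTGS2, the cyclooxygenase-2 gene, had 0.59 ± 0.23 under HPRT targeting in set B, and LY96, the MD-2 partner of TLR4, had 0.56 ± 0.26 in set A. None of these passed the adjusted threshold. Between the negative controls of set B and set A, 8 of 78 list genes passed it, beside 9.6% of all genes, among them RELA, the p65 subunit (-0.73 ± 0.23; adjusted p = 0.0462), IKBKG (-0.59 ± 0.14) and IL6ST (0.57 ± 0.11).

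Genes whose level followed the mean of the members across the 27 libraries, centred on their groups, were GORASP2 (Pearson r = 0.68), NIT1 (0.68), OVCA2 (0.66), EVA1B (0.64) and ZDHHC13 (0.63), and VPS39 (-0.73) and WDR73 (-0.69) ran opposite. The closest to single members were GPAT3 for CXCL8 (0.84), RAB3B for CXCL1 (0.93), TIPARP for CCL2 (0.91) and DIPK2B for ICAM1 (0.93). APH1A was closest to NFKBIA (0.86), RPP38 to TNFAIP3 (0.78), CMC4 to RELB (0.76) and ZFAND3 to IL6 (0.72). Depth and composition of a library are shared by all genes in it, and without the 7 libraries (n = 20) other genes took these places, such as SLC20A1 for CXCL8 (0.93) and ATOSA for ICAM1 (0.96).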

How the data were processed

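What the authors deposited is a count table of whole reads, with 14008 genes and 27 libraries. Per the submitters' processing notes, edgeR 3.24.3 and hg38 were used; aligner and counter: not given in the sources used here. Genes were matched by Ensembl identifier, with positions from GENCODE 29 on GRCh38. QuantSeq counts 3′ fragments of 86-cycle reads without molecular identifiers, so intervals for single counts cover counting error only.

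Counts were fitted with edgeR 4.0.16 (R 4.3.3): TMM scaling, filterByExpr by group, group means, quasi-likelihood tests, two-sided, and Benjamini-Hochberg adjustment over all genes at 0.05. The fits held 12 libraries of set A (11467 genes), 15 of set B (11769), 19 control libraries with the set as covariate (11836), or all 27 (12055). CPM use TMM factors over all 27. The SE is the fold change divided by the square root of F, and intervals are approximate at low counts. The steps were checked on simulated data. No libraries of a group were copies, and the labels pair none; replicates are numbered in accession order.

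The members, lists, tests and the rule for the 7 libraries that stand apart (median Spearman correlation with the set more than 3 scaled median absolute deviations below its median) were chosen with earlier results of these data known. All members are named; list genes are named at a mean of at least 10 CPM and an unadjusted p under 0.05 against a negative control. Alternatives were DESeq2 1.42.0, limma 3.58.1 voom with quality weights, DESeq2 size factors, 2 other filters, thinning, all 27 libraries in the fit, leaving out each library, and leaving out the 7; leaving out the lowest title number was added after seeing the data.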

Additional observations from a re-analysis of the deposited data

Results flagged for a closer look

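Of the levels, 2 lay far from the other libraries of their group, among 48 member-by-group sets examined, of which chance flags about 1 in 20. IL6 in SMAD3 deletion replicate 3 was at 6.48 CPM, against 1.86 to 2.54 CPM in the other 3 libraries, and without that library the log2 fold change of IL6 against the negative control was -0.45, against 0.11 with it. ICAM1 in negative control replicate 1 of set B was at 29.8 CPM, against 2.83 to 12.7 CPM in the other 6; this is the library of the lowest title number of its group. Without it the log2 fold change of ICAM1 in the LDAH deletion was 0.92, against 0.43 with it.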

How the results depend on the processing

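Under the 9 alternatives and with each library left out in turn, 2370 values of the 80 member fold changes and 10 counts were recomputed, and 0 members passed the adjusted threshold under any of them; the smallest adjusted p, 0.0708, was that of CXCL8 in the LDAH deletion without the 7 libraries that stand apart. Of the values, 4 reversed. IL6 under HPRT targeting in set B was at -0.67 and moved to 0.32 with limma voom quality weights and to 0.37 without the 7 libraries; over both sets it was at -0.60 and moved to 0.037 without them. The difference of HPRT effects for TNFAIP3 was -1.55 and moved to 0.0058 without the 7. Without the 7, HPRT-targeted B held only 2 libraries. The cause was not tested. Of the 80 fold changes, 53 lay within 1 SE of 0, and 130 sign changes among their alternatives were not read as reversals. Over all genes, the LDAH deletion against its control had 0 calls, 14 with DESeq2 and 212 without the 7 libraries; against HPRT targeting it had 0 and 77. The SMAD3 deletion against HPRT targeting had 0, 17 with DESeq2 and 55 without the 7. The difference of deletion effects had 0 and 68, and the negative controls of both sets differed in 1157 genes, 3639 with voom and 3482 without the 7. No fit with a replicate block was run, since the labels give the groups no common replicate number and do not say that the title numbers pair libraries. Depth limits TNFAIP3 and IL6 most, at 0 to 29 and 4 to 52 counts per library.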

Other observations

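Ranked by title number, the 4 libraries of each set A group can be laid side by side for ICAM1, as values with no test. At rank 1 it had 14.6 CPM in the SMAD3 deletion and 17.2 CPM in HPRT targeting, against 15.3 CPM in the negative control. At rank 2 the values were 10.4 and 14.0, against 11.1 CPM. Rank 3 had 4.86 and 4.65, against 5.74 CPM, and rank 4 had 6.53 and 9.47, against 8.05 CPM. The SMAD3 deletion library was below the negative control at each of the 4 ranks, though the labels do not pair libraries by rank. The share of genes with such an order was not computed, and the log2 fold change of ICAM1 was -0.12 ± 0.42 (SE). CXCL8 at these ranks had 9.25 and 2.73, against 9.01 CPM, then 14.0 and 12.6, against 12.96 CPM, then 22.3 and 29.9, against 18.2 CPM, and last 16.0 and 19.8, against 19.7 CPM. Only 23.6% of the variation of NFKBIA followed the same ranks, below the 34.4% of the median gene. Set B, with groups of 4, 4 and 7 libraries and gaps in the numbers, was not laid out in this way.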
